A study of Homo sapiens with 34 samples.

Results

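Relative mRNA production was inferred gene by gene in hTERT-RPE1, a human cell line from retinal pigment epithelium made immortal with telomerase, and was compared between a line with an induced knockdown of CCND1 and a line with its induced overexpression. CCND1 encodes cyclin D1, the cyclin that activates CDK4 and CDK6 in G1. A gene entered where its abundance and its decay constant could be measured in all 4 time courses, and 3311 of the 17037 genes counted met this rule. At least 1 course gave a decay constant for 8514 genes.

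The amount of an mRNA in a cell is set by how fast it is made and how fast it is lost. SLAM-seq follows the loss: cells are fed 4-thiouridine (s4U), the s4U in RNA is alkylated so that it is read as C, and the share of T bases read as C (the T>C rate) declines once the medium is changed to an excess of unlabelled uridine. At steady state production equals the decay constant times abundance, so a difference in abundance between cells, on a log scale, is the difference in production minus the difference in the decay constant.

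Cells of the knockdown line carried an inducible knockdown construct, and by the labels cells of the overexpression line carried the same inducible knockdown together with an inducible CCND1 overexpression construct. By the study's methods the shRNA targets the CCND1 3′ UTR and the overexpressed allele is resistant to it. Both lines are lentiviral and polyclonal, and all cells received 0.5 µg/mL doxycycline, were pulsed from day 4 for 24 h with 10 µM s4U (medium renewed at intervals of 3 h), and were chased with 1 mM uridine for up to 1440 min. The 34 libraries, 17 per line, formed 2 courses per line of 6, 9, 7 and 8 labelled time points (knockdown courses 1 and 2, overexpression courses 1 and 2), each with an unlabelled library. Nothing in the labels tells if the courses came from separate cultures, so the p-values measure only the spread between these courses, which may be technical.

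Libraries held 14712332 to 44480703 reads in 3′ UTR intervals, and over the measured genes a median of 7732 to 9127 reads per course lay behind an abundance. Some libraries stood apart: the 720 min library of overexpression course 1, with a T>C rate over all intervals of 0.175% against 0.231% to 0.285% in the other 720 min libraries, and the unlabelled libraries of both first courses, with 0.0194% (knockdown) and 0.0176% (overexpression) against 0.0296% and 0.0279% in the second courses. Of 11 markers of retinal pigment epithelium, 10 had a median under 5 CPM in both lines, RPE65 and TTR among them, and MITF was the exception. Vimentin, keratin 8 and keratin 18 were abundant, whereas the epithelial markers CDH1, EPCAM and KRT19 had a median of 0 CPM in both lines. All markers of blood and endothelium had medians under 5 CPM. Of 5 neural markers, 2 reached a median of 5 CPM in a line. These were SYT1 (17.6 CPM in knockdown, 5.93 CPM in overexpression) and MAP2 (7.41 and 4.74 CPM).

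Abundance was the mean CPM (the count scaled to all 3′ UTR reads of its library) at 0, 180 and 360 min, the decay constant K was fitted to the background-subtracted T>C rate, and relative production was their product in CPM per h. Being scaled in this way, production is relative to the other mRNAs of the same library and not an amount per cell, and K includes dilution of labelled mRNA by growth. By the study's measurements the knockdown line divided more slowly, and the part of growth in the differences of K and production was not tested. All differences below are log2 values, knockdown minus overexpression.

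Over the 3311 genes, relative production was lower in the knockdown line at the median by 0.22, with a median difference of −0.03 in abundance and −0.20 in K. The median production was 12.7 and 11.1 CPM per h in the knockdown courses and 13.6 and 14.3 CPM per h in the overexpression courses. Both knockdown courses lay below both overexpression courses, and the 4 course pairs between the lines gave median differences of −0.15, −0.20, −0.25 and −0.32, where the courses of one line differed by 0.14 (knockdown) and −0.04 (overexpression). The exact two-sided permutation test over the 4 courses gave p = 0.333, the smallest that 2 courses against 2 allow. The median half-lives were 4.99 and 5.36 h in the knockdown courses and 4.89 and 4.45 h in the overexpression courses, again without overlap (exact permutation p = 0.333). Without the 720 min library of overexpression course 1 the median production difference was −0.13 over 3108 genes, and with K centred on the median of each course it was −0.07 (exact permutation p = 0.667 in both).

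**Figure D1:**
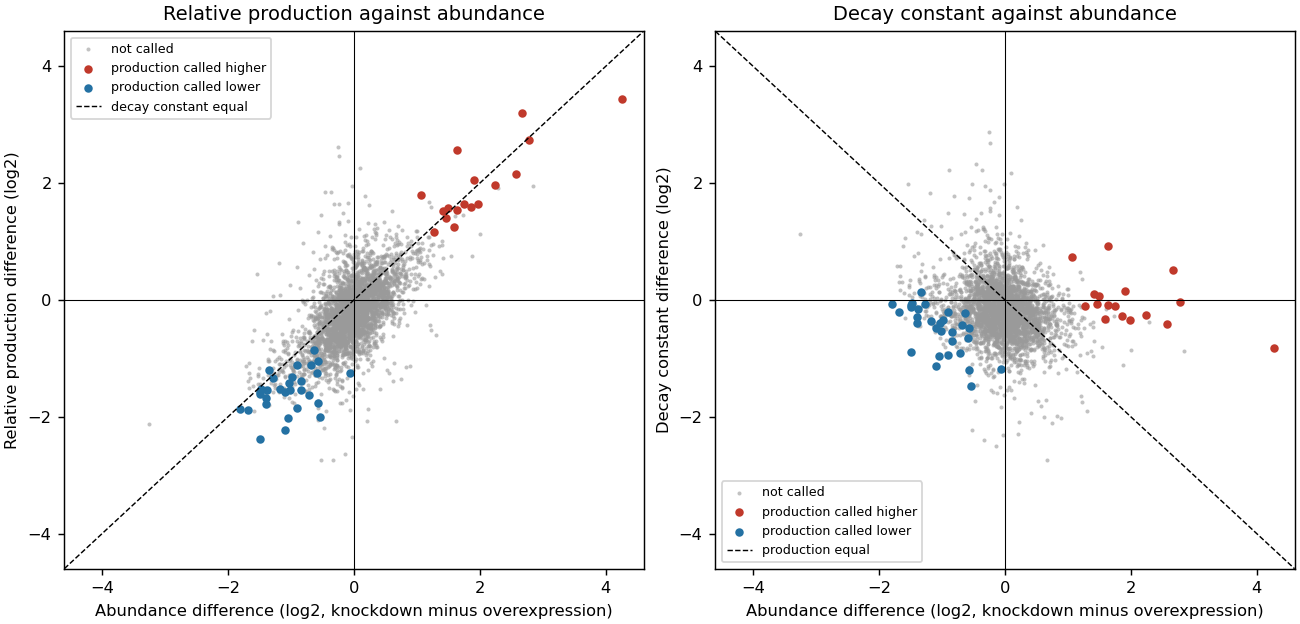
Each point is 1 of the 3311 genes, plotted by its abundance difference (horizontal axis, log2) and by its difference in relative production (left) or in the decay constant (right), with the 17 genes called higher and the 30 called lower for production in colour. The cloud runs along the dashed line of equal decay constants on the left, while on the right it shows no such slope and lies mostly below 0. Abundance is a factor of the production plotted on the left.

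The split of the abundance differences was then made over genes. The slope of the production difference on the abundance difference was 78.5% ± 2.83 (SD over the 4 course pairs, which share courses), and the decay constant carried the other 21.5%. Abundance is a factor of production, so values of K unrelated to abundance would by construction give the whole share to production. The share is thus a description and not a test. The pairs gave 77.8%, 83.3%, 77.6% and 81.6%. When the abundance difference was taken from a pair of courses and the difference in K from the pair that shared no library with it, production carried 76.6% (75.5% to 79.3%). The precision of the parts was unequal: the spread between courses of a line accounted for 6.86% of the variance of the abundance differences over genes, for 59.5% in production and for 86.7% in K.

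A share over all genes hides a difference between mRNAs that were more and less abundant in the knockdown line. Of 11923 genes tested for abundance with edgeR's quasi-likelihood test, 1810 (15.2%) were called higher and 1739 (14.6%) lower in the knockdown line at an adjusted p under 0.05, and 604 and 698 of these had a production value. The genes called lower had medians of −0.58 in abundance, −0.74 in production and −0.10 in K. The genes called higher had medians of 0.53 in abundance, 0.27 in production and −0.33 in K. Production lay on the same side as abundance in 640 of the 698 lower genes, with no overlap of the courses in 481, and in 429 of the 604 higher genes, with no overlap in 229. For K the counts ran the other way: decay acted in the direction of the abundance difference without overlap of the courses in 279 of the 604 higher and in 100 of the 698 lower genes. In the same terms, production covered under 33.3% of the difference in 257 of the higher genes (42.6%) and in 92 of the lower genes (13.2%).

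Against these counts stands the background of all measured genes, of which 35.5% were lower and 12.6% higher in production in both knockdown courses than in both overexpression courses, and 33.2% lower and 9.33% higher in K. With K centred on the median of each course the difference between the classes was smaller. Production was then without overlap on the side of abundance in 307 of the higher and 428 of the lower genes, with medians in production of 0.41 and −0.59. Decay was without overlap in the direction of the abundance difference in 184 of the 604 higher and 162 of the 698 lower genes, and production covered under 33.3% of the difference in 178 (29.5%) and 156 (22.4%).

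Differences were also read from courses that did not choose the genes. Genes with an abundance difference above 1 between the first courses (87 genes) had medians of 1.12 in abundance, 0.89 in production and −0.36 in K between the second courses, and genes below −1 (137 genes) had −1.12, −1.29 and −0.14. Genes binned on the second courses gave 1.35, 1.10 and −0.23 (70 genes) and −1.31, −1.12 and 0.17 (102 genes) between the first. In the first reading the production median was larger in size than that of abundance at the low end and smaller at the high end, whereas in the second it was smaller at both ends. Between these ends the median production rose with the abundance bin in both readings, and the medians of K stayed between −0.45 and 0.17.

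**Figure D2:**
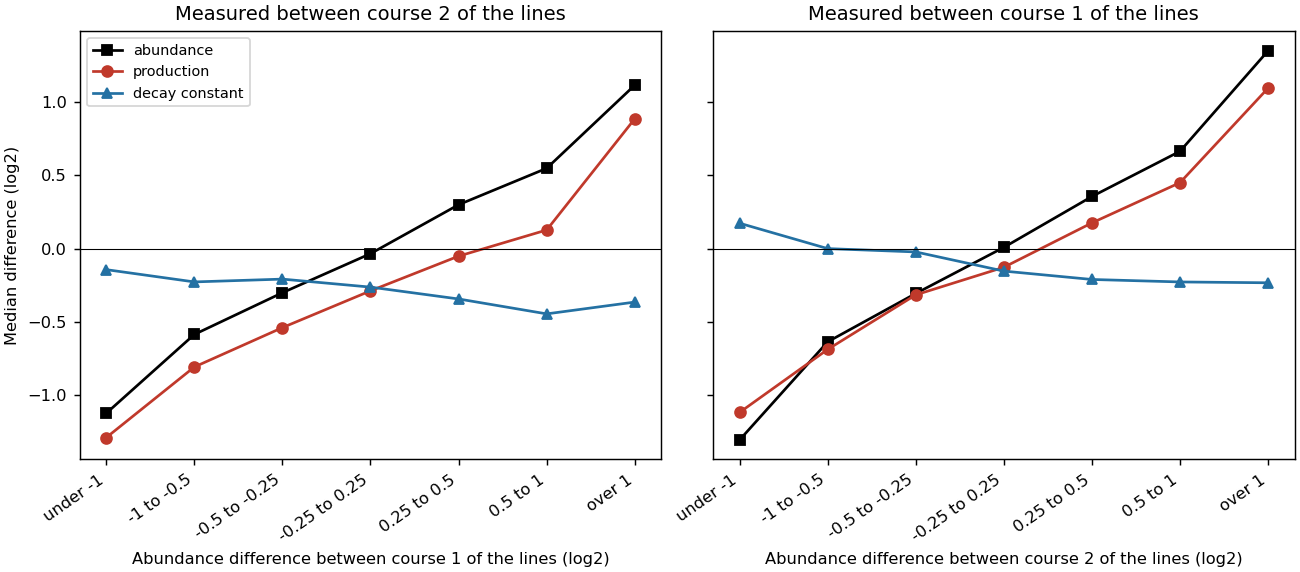
Median differences (vertical axis, log2) in abundance, production and the decay constant of genes grouped by the abundance difference between the other courses (horizontal axis, log2); no library is shared between the axes. Production, of which abundance is a factor, rises with abundance from −1.29 to 0.89 on the left and from −1.12 to 1.10 on the right. The decay constant stays between −0.45 and 0.17.

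Tested gene by gene with limma, production was called different for 47 genes at a Benjamini-Hochberg adjusted p under 0.05, 17 higher (0.513%) and 30 lower (0.906%) in the knockdown line, and 545 genes had an unadjusted p under 0.05. Of the 47, 46 were also called in the same direction for abundance, which is a factor of production. No gene was called for K (0%), for which 301 genes had an unadjusted p under 0.05, 255 of them lower in the knockdown line, and the smallest adjusted p was 0.227. With K centred the split turned to 23 higher and 8 lower. The number of calls depended on the settings: none was made without limma's trend of spread on level or without the filter on fit quality, 13 when the unlabelled library of the other course was subtracted (an alternative added after the data were seen), 61 without the 720 min library of overexpression course 1, and 20, 30 and 92 without knockdown course 1, knockdown course 2 and overexpression course 1.

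Of the 17 genes with higher production in the knockdown line, CPA4 and PTX3 had the largest differences. CPA4, a secreted carboxypeptidase, was made at 42.2 and 33.9 CPM per h in the knockdown courses and at 4.79 and 2.55 CPM per h in the overexpression courses. The difference of 3.44 ± 0.44 (SE, limma adjusted p = 0.00939) was smaller than that of its abundance, 4.27, and its half-life was 11.0 and 13.1 h against 5.76 and 7.91 h (K not called). In PTX3, a soluble pattern-recognition protein, production was 89.7 and 66.1 against 7.95 and 8.88 CPM per h (3.20 ± 0.30, adjusted p = 0.00157), above its abundance difference of 2.67, with half-lives of 2.80 and 2.65 h against 3.69 and 4.15 h. In both genes the courses of the lines lay far apart on the production scale, by which the genes were chosen.

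ANKRD1, an ankyrin repeat protein and a known target of YAP, was produced at 372 and 281 CPM per h in the knockdown courses and at 70.1 and 96.4 CPM per h in the overexpression courses (1.97 ± 0.22, adjusted p = 0.00564). Its abundance was not steady over the chase. From 0 to 1440 min it fell from 1332 and 1405 to 304.5 and 347.4 CPM in the knockdown courses. In the overexpression courses it fell from 366.5 and 314.2 to 161.8 and 115.7 CPM. FN1, which encodes fibronectin, was produced at 230 and 189 CPM per h against 65.6 and 67.5 CPM per h (1.65 ± 0.20, adjusted p = 0.00712), at half-lives of 17.0, 16.9, 16.6 and 15.1 h over the 4 courses. The half-lives of FN1 differed by less than 2 h beside an abundance difference of 1.74. THBS1, the matrix protein thrombospondin 1, had 163 and 99.5 against 41.4 and 43.2 CPM per h (1.59 ± 0.26, adjusted p = 0.0275).

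The other genes called higher were SFRP1 (2.75), a secreted inhibitor of Wnt signalling, SAT1 (2.57), which acetylates polyamines, TGM2 (2.16), a protein-crosslinking transglutaminase, DAB2 (2.06), an endocytic adaptor, VASN (1.80), which binds TGF-beta, IGFBP3 (1.64), an IGF-binding protein, TMEM158 (1.57), G0S2 (1.54), an inhibitor of triglyceride lipolysis, DLG1 (1.52), a membrane scaffold, CITED2 (1.40), a transcriptional coregulator, FGF2 (1.26), a growth factor, and INHBA (1.17), the subunit of activin A. SAT1 and VASN were among those whose K was also higher in both knockdown courses, by 0.93 and 0.73, neither called.

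**Figure D3:**
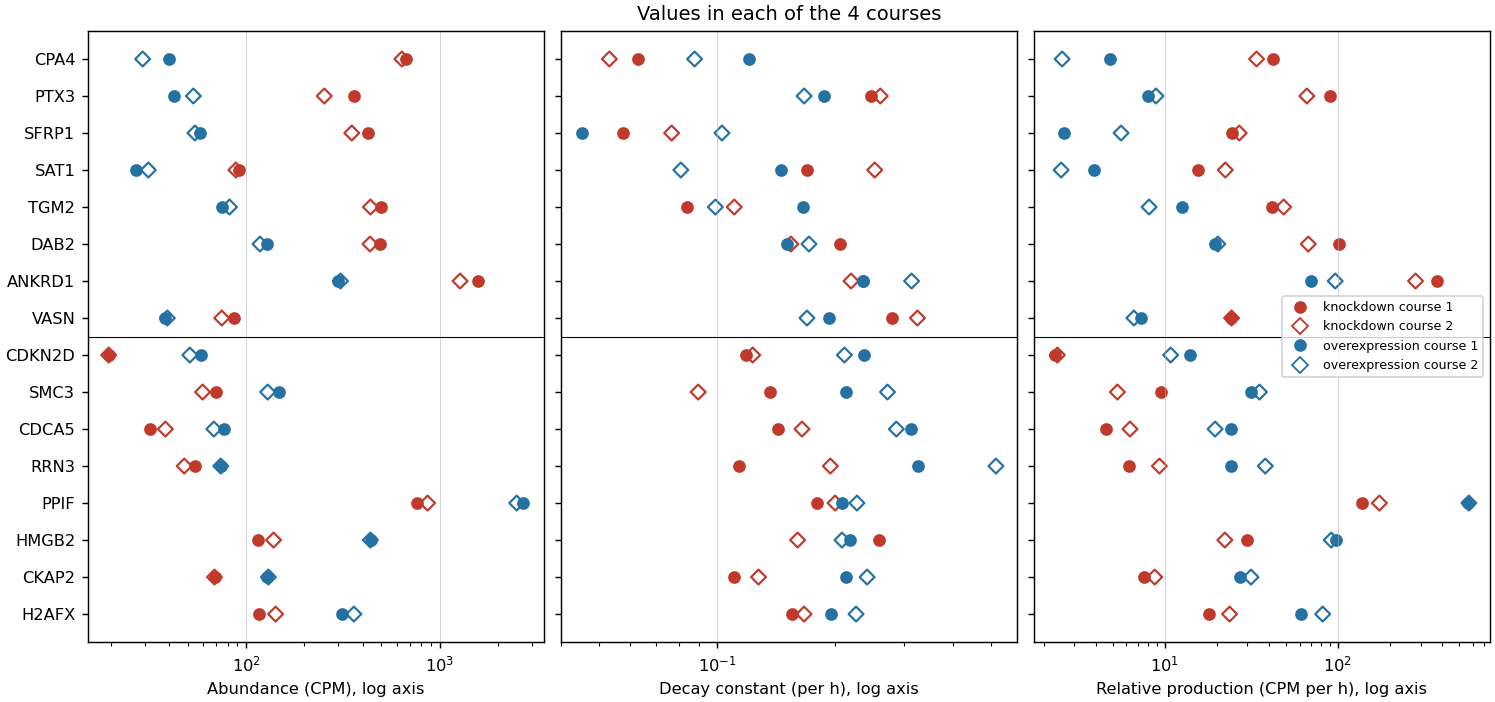
Abundance (CPM), decay constant (per h) and relative production (CPM per h) on log axes in each of the 4 courses, for the 8 genes of largest and the 8 of smallest production difference among those called. Production of the lines is separate for all 16 genes, which the rule for choosing them required. For PTX3, SAT1 and VASN the knockdown line has the higher decay constant in both courses.

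Of the 30 genes with lower production in the knockdown line, 11 belonged to the lists of mitosis, DNA replication or DNA repair. These lists held 43, 26 and 9 of the 3311 measured genes, of which 0.906% were called lower. The lists were chosen with earlier results of these data known. Among the 30 genes, PPIF, which encodes the mitochondrial cyclophilin D, had the smallest adjusted p. Its production was 138 and 174 CPM per h in the knockdown courses and 565 and 571 CPM per h in the overexpression courses (−1.88 ± 0.18, limma adjusted p = 0.00157). CDKN2D, an inhibitor of CDK4 and CDK6, had the lowest value (2.30 and 2.39 against 13.9 and 10.8 CPM per h, −2.38 ± 0.46, adjusted p = 0.041). The lines did not overlap in the production of either gene, which the rule for naming both required. The half-life of CDKN2D was 5.84 and 5.62 h against 2.92 and 3.28 h (K not called).

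SMC3, a cohesin subunit, and CDCA5, which protects cohesin on chromosomes, had production differences of −2.23 and −2.02, made up of −1.10 and −1.05 in abundance and −1.13 and −0.96 in K. HMGB2, a chromatin protein, had 29.9 and 22.2 against 96.9 and 91.4 CPM per h (−1.87 ± 0.25, adjusted p = 0.0108), and its K overlapped between the lines. PCNA, the sliding clamp of DNA polymerases, had 16.8 and 14.4 against 54.7 and 41.4 CPM per h (−1.62 ± 0.29, adjusted p = 0.0339). CDK1, the kinase that drives entry into mitosis, had 12.5 and 15.9 against 38.7 and 42.5 CPM per h (−1.52 ± 0.30, adjusted p = 0.0442).

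Other genes with roles in the cell cycle that were called were CKAP2 (−1.85) and TACC3 (−1.55) of the spindle, the anaphase-promoting complex activator CDC20 (−1.54) and its ubiquitin-conjugating enzyme UBE2C (−1.34), the condensin subunit SMC4 (−1.53), ANLN (−1.39) of the cleavage furrow, the checkpoint protein BUB3 (−1.05), the ribonucleotide reductase subunit RRM2 (−1.20), UBE2T (−1.68) of the Fanconi pathway, and the tubulin regulators and tubulins STMN1 (−1.32) and TUBA1B (−0.86). Genes of histones and chromatin among them were H2AFX (−1.78), H2AFZ (−1.11) and NUCKS1 (−1.11). Transcriptional and signalling genes were FOSL1 (−1.57), a subunit of AP-1, ID1 (−1.63), LMO4 (−1.57) and the receptor kinase AXL (−1.24). The remaining were RRN3 (−2.0), an initiation factor of RNA polymerase I, ZFP36L2 (−1.77), which binds AU-rich elements in mRNAs, NUP62 (−1.55) of the nuclear pore, the cystine transporter SLC7A11 (−1.42) and the ribosomal protein gene RPL27A (−1.25).

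RPL27A was the gene called for production and not for abundance. It was produced at 44.9 and 56.8 CPM per h in the knockdown courses and at 116 and 124 CPM per h in the overexpression courses (adjusted p = 0.0308), with a half-life of 47.0 and 38.7 h against 19.1 and 18.3 h, and its abundance differed by −0.06 (edgeR adjusted p = 0.715). At 1440 min of chase 64.5% and 52.5% of its starting T>C rate was left in the knockdown courses and 30.7% and 21.3% in the overexpression courses. A half-life beyond the 24 h of chase is an extrapolation. Both knockdown half-lives were longer than the doubling time that the study gives for this line.

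**Figure D4:**
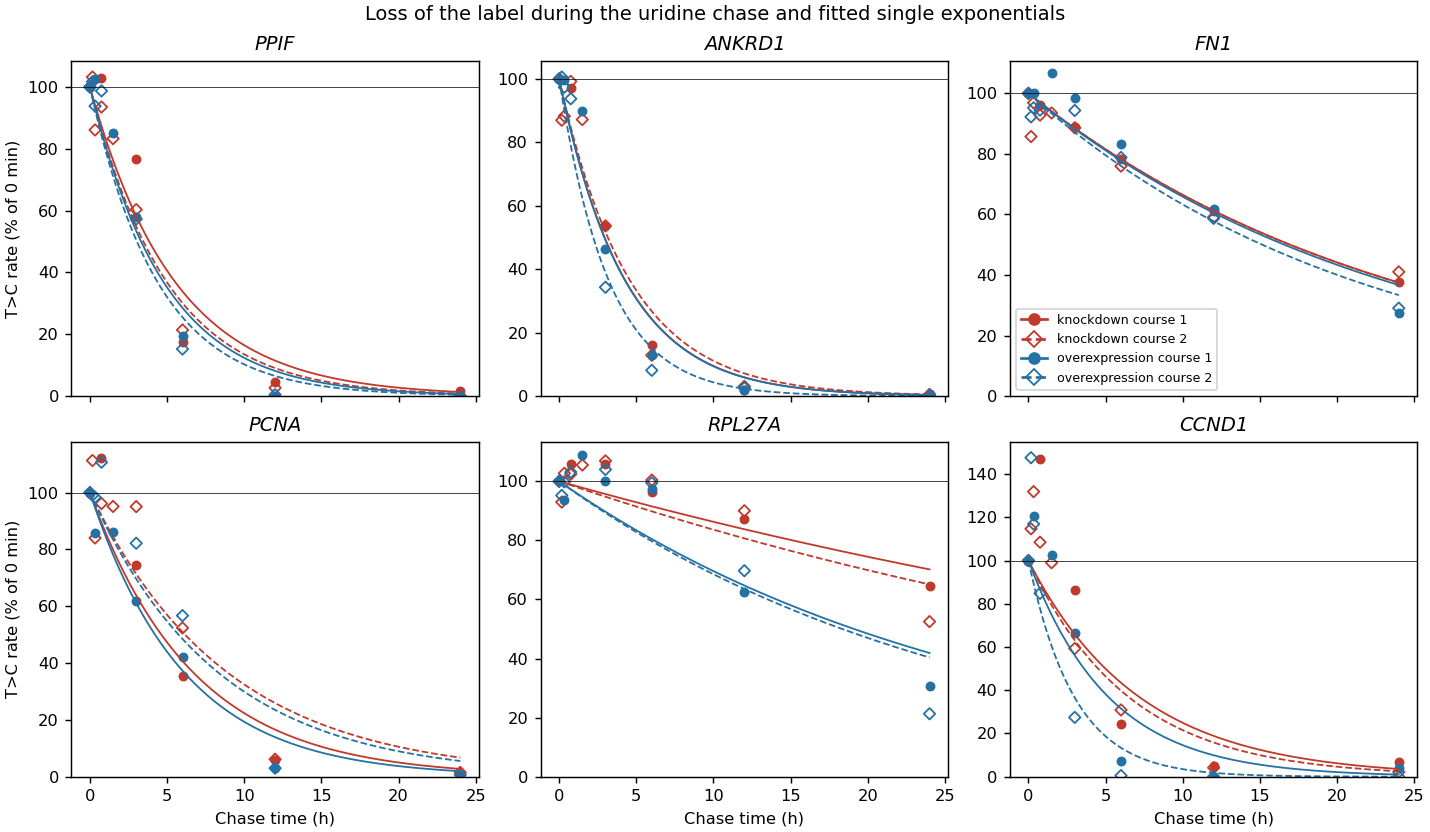
T>C rate as a percentage of the rate at 0 min (vertical axis) against hours of chase, with points for the libraries and lines for the fitted single exponentials of the 4 courses, for 6 genes chosen after their values were seen. FN1 keeps 37.5% and 41.0% of its label at 24 h in the knockdown courses and 27.5% and 29.0% in the overexpression courses. RPL27A also keeps more label at 24 h in the knockdown courses (64.5% and 52.5% against 30.7% and 21.3%). In PPIF the points lie above the fitted curves at 3 h and below them at 6 h in all courses.

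Promoters are shown because many genes of the cell cycle lists had lower production together. Promoters (250 bases before to 50 after the start site, RefSeq, GRCh38.p14) were found for 2750 of the 3311 genes, for 22 of the 30 called lower and for 15 of the 17 called higher. The letters TTTGAA (called CHR, a cell cycle homology region, searched on both strands) were found in 9 of the 22 promoters of genes called lower (40.9%), in 1 of the 15 of genes called higher (6.67%), in 10.5% of the 2750 and in 15.4% of all 27305 promoters. The E2F letters TTTCCCGC, TTTCGCGC, TTTGCCGC or TTTGGCGC on either strand were in 5 (22.7%), 0, 5.75% and 3.33% of the same sets. By list, 23 of 36 promoters of mitosis genes held the CHR letters (63.9%) and 2 the E2F letters, whereas 10 of 23 promoters of DNA replication and G1/S genes held the E2F letters (43.5%) and 1 the CHR letters. GGAATG, the core bound by TEAD factors, was in 4 of the 15 promoters of genes called higher (26.7%), in 1 of the 22 of genes called lower (4.55%) and in 14.0% of all promoters, and TGANTCA, the AP-1 letters and their own reverse complement, in 2, 1 and 7.76%. A match is a description of letters in a window and was not tested as a site. Windows of 30 bases around a match, read on the strand of the gene with the match in capitals, were the following, 3 with CHR, 3 with E2F, 2 with TEAD and 1 with AP-1 letters.
CDK1, chr10:60778158-60778187, plus strand: gagtataataaaTTTGAActgtgccaatgc
CDC20, chr1:43358904-43358933, plus strand: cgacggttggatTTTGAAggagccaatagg
ANLN, chr7:36389830-36389859, plus strand: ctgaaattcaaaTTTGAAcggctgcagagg
PCNA, chr20:5126663-5126692, minus strand: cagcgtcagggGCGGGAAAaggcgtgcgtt
CDCA5, chr11:65084067-65084096, minus strand: cttccgcttccTTTCCCGCagggcgggtaa
STMN1, chr1:25906439-25906468, minus strand: acgtgcctctgTTTGGCGCttttgtgcgcg
ANKRD1, chr10:90921198-90921227, minus strand: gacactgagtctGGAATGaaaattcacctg
THBS1, chr15:39581021-39581050, plus strand: gaggaatccccaGGAATGcgagcgcccctt
CPA4, chr7:130293102-130293131, plus strand: ttttgaggactTGAGTCActctcagactct

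Lists of genes were read by how their members split. Over all measured genes, 35.5% were lower and 12.6% higher in production in both knockdown courses than in both overexpression courses. Of 66 mitosis genes 43 had a production value, of which 40 were lower in both knockdown courses (8 called) and 1, CENPA, was higher. Their medians were −1.07 in abundance, −1.25 in production and −0.06 in K, with K near 0 at the median. Examples that did not pass the test were ASPM (−1.85 ± 0.42, adjusted p = 0.0657), KIF4A (−1.74 ± 0.43) and WEE1 (−1.56 ± 0.33), a spindle protein, a chromosomal kinesin and the kinase that holds back CDK1. CENPA, the centromeric histone variant, had production of 8.13 and 11.9 against 6.91 and 7.49 CPM per h and half-lives of 1.18 and 1.15 h against 5.08 and 4.21 h, at an abundance difference of −1.54. Of 62 genes of DNA replication and G1/S, 26 were measured and 22 were lower without overlap (PCNA and RRM2 called), with medians of −1.27, −1.19 and −0.01. CDC45, MCM4 and MCM6, parts of the replicative helicase, had production differences of −1.90, −1.58 and −1.55, not called. Of 39 genes of DNA repair by homologous recombination and the Fanconi pathway 9 were measured and 8 were lower without overlap (UBE2T called), with medians of −1.25, −1.16 and −0.03. In all 3 lists the median production was below −1 in comparison with −0.22 over all genes, but for the repair list the pairs of knockdown course 1 gave −0.37 and −0.76, whereas those of the second gave −1.39 and −1.38.

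**Figure D5:**
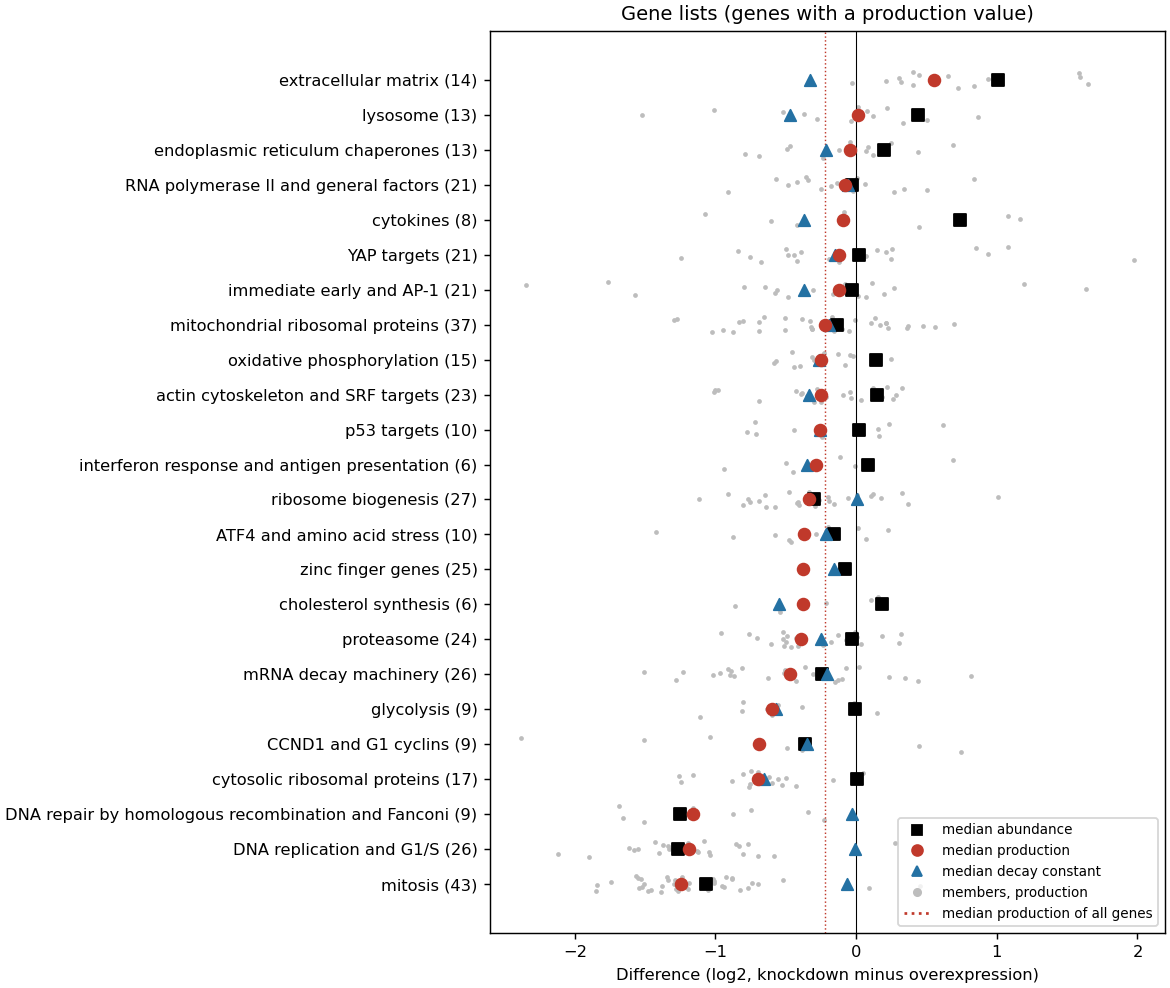
Median difference in abundance (squares), relative production (circles) and the decay constant (triangles) of each gene list with 6 or more measured genes, in brackets their number, on the log2 scale, with grey points for the production difference of the members (not drawn for zinc finger genes). Cell cycle lists sit at the left with decay near 0, extracellular matrix at the right, and cytosolic ribosomal protein and glycolysis genes show abundance near 0 with production and decay both near −0.6.

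Extracellular matrix genes were the list with the highest median production difference. Of 41 genes 14 were measured, 11 were higher in both knockdown courses, FN1 and THBS1 were called, and the medians were 1.01 in abundance, 0.55 in production and −0.33 in K. K was lower without overlap in 9 of the 14, and the median half-life was 9.34 h against 7.14 h in the overexpression line. Over all measured genes 12.6% were higher in production and 33.2% lower in K without overlap. PLOD2, which hydroxylates collagen lysines, had 63.2 and 34.8 against 17.2 and 14.1 CPM per h (1.59 ± 0.34, adjusted p = 0.0585), and LOX, which crosslinks collagen, had a difference of 0.94, not called.

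Lysosomal genes were split otherwise. Of 61 genes 13 were measured, with medians of 0.44 in abundance, 0.01 in production and −0.47 in K, so the median of production lay near 0. Production was higher without overlap in 3 and lower in 3, and K was lower without overlap in 8. Over all measured genes the same shares were 12.6%, 35.5% and 33.2%. The protease CTSC was produced at 30.9 and 31.9 CPM per h in the knockdown courses and at 15.5 and 19.2 CPM per h in the overexpression courses (0.86 ± 0.30, adjusted p = 0.179), with −0.14 in K. The courses of the lines did not overlap in its production and overlapped in K.

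In 2 further lists the medians of production and K were both low and that of abundance was near 0. The 17 measured genes of cytosolic ribosomal proteins, of 61, had medians of 0.01 in abundance, −0.70 in production and −0.66 in K. Production was lower without overlap in 14 and K in 16, against 35.5% and 33.2% of all measured genes. The median half-lives were 24.2 h (knockdown) and 15.6 h (overexpression). Their median production difference was −0.91 and −0.97 for knockdown course 1 and −0.42 and −0.44 for knockdown course 2, against overexpression courses 1 and 2. RPL27A was called, and RPS12 (−1.26 ± 0.40) and RPS16 (−1.16 ± 0.37) were not. The 9 measured glycolysis genes, of 18, had medians of −0.01, −0.60 and −0.57. Their median production difference was −1.03 and −1.15 for knockdown course 1 but −0.11 and −0.23 for knockdown course 2, which is no lower than over all genes (−0.25 and −0.32), so the low value rested on knockdown course 1. GAPDH had production of 68.1 and 145 against 149 and 151 CPM per h at abundances that differed by −0.01, and the second knockdown course lay close to the overexpression courses.

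These lists hold long-lived mRNAs, and K differed most there in one reading of the courses. Genes with a half-life of 16 h or more in the second courses (49 genes) had median differences of −0.83 in K and −0.85 in production between the first courses, against −0.04 and −0.08 for half-lives of 2 to 4 h (1031 genes). Binned on the first courses and read in the second, the same classes gave −0.35 and −0.28 (61 genes) against −0.26 and −0.35 (992 genes), so the gradient in K was small there. Proteasome genes (24 of 31 measured) had medians of −0.03, −0.39 and −0.25, mitochondrial ribosomal protein genes (37 of 72) −0.14, −0.22 and −0.19, and genes of oxidative phosphorylation (15 of 67) 0.14, −0.25 and −0.26, with no member called for production.

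Of 21 measured YAP target genes of 26, 6 were higher and 7 lower in production without overlap, the latter a share near the 35.5% of all measured genes, ANKRD1 called higher and AXL called lower, with a median of −0.12. TGFB2 and F3, a growth factor and tissue factor, had differences of 1.08 and 0.93, not called. Of 21 measured immediate early and AP-1 genes of 42, FOSL1 and ZFP36L2 were called lower and PHLDA1 had 1.19, not called. The 8 measured cytokine genes of 25 had a median of 0.74 in abundance and −0.10 in production, with INHBA called higher. TNFAIP3, an inhibitor of NF-kB signalling, had differences of 0.64 in abundance, −1.07 in production and −1.72 in K, neither part called. The 26 measured genes of mRNA decay, of 49, were lower in production without overlap in 17 and higher in none (35.5% and 12.6% of all measured genes), with a median of −0.47 beside −0.22 over all genes.

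The remaining lists of amino acid stress genes (10 of 25 measured, SLC7A11 called lower), endoplasmic reticulum chaperones (13 of 21), ribosome biogenesis (27 of 48), RNA polymerase II and general factors (21 of 42), actin and SRF target genes (23 of 34), cholesterol synthesis (6 of 26), p53 targets (10 of 27), interferon and antigen presentation (6 of 34) and zinc finger genes (25 of 453) had median production differences of −0.38 to −0.05 and no other call. None of 29 clustered histone genes had a production value.

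CCND1 itself (3′ UTR at chr11:69651283-69654474, plus strand, hg38) had 165 and 155 CPM in the knockdown courses and 55.5 and 53.7 CPM in the overexpression courses (1.55 ± 0.11, edgeR adjusted p = 1.74e-07). Its production was 22.9 and 23.8 against 10.7 and 18.0 CPM per h (0.75 ± 0.36, adjusted p = 0.335) and its half-life 4.99 and 4.51 h against 3.60 and 2.07 h. Since the shRNA acts on this 3′ UTR in both lines and whether the overexpressed allele carries it was not tested, these reads check neither label. In the list of CCND1 and G1 regulators 9 of 13 genes were measured, with a median production difference of −0.69 and CDKN2D called lower. The CDK inhibitor CDKN2C had −1.51 and RB1, the retinoblastoma gene, −1.04, neither called.

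Among genes of similar abundance in both lines, the largest differences in production and K came with a wide spread between courses. MYC, a transcription factor with an unstable mRNA, had 35.4 and 35.9 against 31.8 and 41.6 CPM, production of 17.5 and 5.26 against 81.8 and 29.0 CPM per h and half-lives of 1.40 and 4.72 h against 0.269 and 0.992 h (production −2.34 ± 0.59, adjusted p = 0.101). Courses of the same line lay far apart in both parts. WBP4, a splicing factor, ran the opposite way with half-lives of 0.319 and 1.81 h against 6.02 and 5.17 h, and in ZNF384, ACBD5 and NKIRAS2 1 course also lay far from the other course of its line. E2F2, a cell cycle transcription factor, was at 2.29 and 4.14 against 32.0 and 27.1 CPM, and its production of 1.32 and 6.46 against 5.66 and 28.4 CPM per h overlapped. RHOA and RAB7A, GTPases of the cytoskeleton and of late endosomes, had production differences of −0.76 ± 0.27 and −0.20 ± 0.30, neither called.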

How the data were processed

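The authors deposited, per library and 3′ UTR interval of hg38, SLAMdunk 0.4.3 tables with raw counts of reads, covered T bases and T>C conversions. The deposited CPM column, scaled by the authors to mapped reads, served to recover mapped reads, and the deposited conversion rate, a fraction, equalled conversions over covered T bases. The annotation release was not given in the sources used here.

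Intervals naming several genes (1168 of 71668) and those with over 10% multimapped reads (7814, holding 14.8% to 18.2% of reads) were left out, and intervals of a gene were summed. Libraries held 14712332 to 44480703 3′ UTR reads. Per course the unlabelled T>C rate was subtracted (floor 0), time points of at least 1 CPM were divided by the 0 min rate, and exp(−Kt) was fitted by least squares with 4 or more time points and K from 0.001 to 5 per h. Of 9532, 9800, 9490 and 9594 genes fitted, 525, 706, 684 and 310 ended at a limit of K and 2246, 4319, 3081 and 2836 had R2 under 0.6, which left 6761, 4775, 5725 and 6448 (knockdown 1 and 2, overexpression 1 and 2). Production and K were tested on the log2 scale with limma 3.58.1 (eBayes with trend), and counts summed over 0, 180 and 360 min with edgeR 4.0.16 (quasi-likelihood, TMM, filterByExpr) in R 4.3.3, each with Benjamini-Hochberg adjustment over all genes tested. Fits were tested on simulated single exponentials in which the lines differed in abundance only, so power for K was not measured. Production was called there for 38% of genes with a true log2 difference of 1 in size and for 99% of those with 2. The spread of K between the simulated courses was set beforehand and not matched to that between the real courses. These percentages therefore hold for the simulated courses and may not hold for the real ones. DESeq2 1.42.0 was an alternative. Errors are SE, or SD where named.

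Genes named were the 8 highest and 8 lowest in production among calls with at least 10 CPM in a line and no overlap of the courses, the 4 highest and lowest in K, 4 with opposed parts and an abundance difference under 0.3, up to 4 per list, and CCND1, MYC, E2F2, FN1, GAPDH, RAB7A and RHOA; the other calls and genes set against them were named after their values were seen, and 1 gene under the rule is not reported here. Members and lists were chosen with earlier results of these data known, and those results named some of the genes.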

Additional observations from a re-analysis of the deposited data

How the results depend on the processing

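Production was called for 47 of 3311 genes. The number of genes tested differed between the settings. The count was 92 of 5499 with the time points common to all courses and 92 of 2692 without 720 min. It was 104 of 857 with a straight line through the log rate from 180 min and 137 of 4592 with a free amplitude. With K centred it was 31 of 3311, with abundance from 6 libraries a course 14 of 3311. The other course's unlabelled library (added after the data were seen) gave 13 of 3318. No gene was called without the R2 filter (7819 tested, 784 with an unadjusted p under 0.05) or without limma's trend (3311 tested, 487). Leaving out a course gave 20 to 92 production calls and a share carried by production of 75.3% to 80.6%. No decay constant was called except 2, both lower, without 720 min. Abundance calls were 3549, and 1648 from 0 min only. The share of 78.5% was 91.1% without the R2 filter, 82.1% with common time points, 81.7% with a free amplitude and 74.4% with the straight line. The cause of these shifts was not tested. The median production difference stayed below 0 in every alternative run, from −0.52 (the straight line, over 857 genes) to −0.07 (K centred). All 47 genes kept their direction in every alternative that gave them a value, which the straight line did for 8 of them. All 47 stayed called with common time points, 46 with a free amplitude and 33 with abundance from 0 min only. Fewer stayed called with K centred (25), with abundance from 6 libraries a course (14) and with the other course's unlabelled library (13). None did without the R2 filter or limma's trend. Of other named genes, production turned to −0.11 for PIGC with common time points, 0.072 for UQCRC2 without 720 min, 0.12 for RAB7A with the straight line, and −0.0081 with a free amplitude for COQ2, for which leaving out a course gave −0.017 (knockdown course 1) to 2.70 (knockdown course 2).

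The labels do not say that the replicate numbers pair courses. Deviations of same-numbered courses from their line correlated at 0.39 in abundance, −0.02 in K and 0.01 in production over genes. With the replicate number as a block 222 genes were called for production (51 higher, 171 lower), including the 47, none for K and 4653 for abundance.

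The part of depth in the error of the fits was not tested: the T>C rate over all intervals at 0 min was 0.849% to 0.963%, and the median SE was 0.41 for production, 0.35 for K and 0.12 for abundance.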
